A study of Mus musculus with 6 samples.

Results

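The genes of the proteasome were followed in peritoneal macrophages (PMs) of lupus-prone and control mice. Members were all protein-coding mouse genes whose symbol starts with Psma, Psmb, Psmc, Psmd or Psme and a number, with pseudogenes left out. The rule gave 46 genes of the 32879 genes that had records in the deposited count tables. Of these, 31 are constitutive subunits of the particle and 5 are the immunoproteasome genes Psmb8, Psmb9, Psmb10, Psme1 and Psme2. The other members are the 19S assembly chaperones Psmd5, Psmd9 and Psmd10, the activators Psme3 and Psme4, the testis subunit Psma8, the thymus subunit Psmb11, and Psme2b, an intronless copy of Psme2. Psmc3ip and Psme3ip1 fit the naming rule although they are not subunits, and they are kept apart from every count of subunits.

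RNA sequencing of sorted PMs was deposited for 3 control mice and 3 diseased-BWF1 mice, with 1 library for each mouse. Controls were non-lupus-susceptible [NZW × BALB/c]F1 mice of 33, 33 and 30 weeks. Diseased-BWF1 mice were [NZB × NZW]F1 mice of 31, 31 and 34 weeks, and by the study's methods they had high anti-dsDNA titers and severe proteinuria. By the same methods all mice were female and of one H2 haplotype, which matters here because Psmb8 and Psmb9 lie in the H2 region. One parental strain differs between the groups along with disease, and the effects of strain and disease cannot be told apart. The labels name no treatment.

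The cells were sorted as F4/80+ and CD11b high. Of the genes behind this sort, Itgam, which encodes CD11b, had 20818 to 27725 normalized counts in every library. Adgre1, which encodes F4/80, had 7060 to 8562. Both levels follow from the sort and are no independent check of identity. Normalized counts are counts divided by DESeq2's size factor of the library, and they are the unit of every level given here. Of the 9 macrophage markers, edgeR called 0 between the groups and 3 had an unadjusted p under 0.05, with 4 above and 5 below 0. The groups overlapped for Gata6, the identity factor of resident peritoneal macrophages (log2 fold change -0.04), Itgam (0.13), Csf1r (0.41) and Mertk (0.44). Icam2 (log2 fold change -0.55, edgeR adjusted p = 0.198) and Timd4 (-0.53, edgeR adjusted p = 0.334) of resident macrophages, Lyz2 (-0.46, edgeR adjusted p = 0.445) and Adgre1 (-0.17, edgeR adjusted p = 0.630) lay lower in all diseased-BWF1 mice than in all controls, and Cd14 (0.88, edgeR adjusted p = 0.263) lay higher. Their part in the proteasome values was not tested. Over all genes tested, 11.2% lay lower and 9.59% higher in all diseased-BWF1 mice. The 5 summed markers of B cells stayed at 11.3 to 20.7 in control and 2.02 to 11.3 in diseased-BWF1 mice, and those of T and NK cells at 1.15 to 11.3 and 5.06 to 12.3. The 4 monocyte and small peritoneal macrophage markers summed to 136 to 161 in diseased-BWF1 and 18.4 to 45.5 in control mice, and 1 of the 2 tested, Cd52, was higher in edgeR's test with a Benjamini-Hochberg adjusted p of 0.00304. The difference of the sums rested on Cd52, and the groups overlapped for Ccr2 and Plac8. Ccr2 had 10.8, 8.23 and 2.30 normalized counts in control and 22.7, 6.08 and 31.3 in diseased-BWF1 mice (log2 fold change 1.43, edgeR adjusted p = 0.441). Plac8 had 23.2, 2.06 and 2.30 against 6.61, 23.3 and 6.05. Ly6c2, of the same list, was near 0 in all libraries, with at most 0.827 normalized counts. The part of this list in the proteasome values was not tested. In bulk RNA, fewer cells of a type and less RNA per cell cannot be told apart. Libraries held 3629901 to 5003360 counts, and 3 counts, taken as the limit of detection, corresponded to 0.652 to 0.888 CPM (counts relative to the sum over genes). That floor covers counting error only, because amplified reads are not independent molecules, while the 95% intervals of fold changes come from edgeR's fit and include the spread between mice.

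The proteasome degrades proteins tagged with ubiquitin. Its 20S core is a barrel of alpha and beta rings, in which Psmb5, Psmb6 and Psmb7 carry the constitutive catalytic sites, and the 19S cap recognises, unfolds and feeds in the substrate. Under interferon-gamma, cells make Psmb8, Psmb9 and Psmb10, which replace Psmb5, Psmb6 and Psmb7 in newly assembled particles, together with the PA28 activator made of Psme1 and Psme2. The resulting immunoproteasome favours peptides that fit major histocompatibility complex (MHC) class I, and it is abundant in immune cells, macrophages included.

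No proteasome gene passed the test between diseased-BWF1 and control PMs. With edgeR's quasi-likelihood test, calling a gene required an adjusted p (Benjamini-Hochberg) under 0.05 and at least a 1.5-fold difference. By that rule 0 of the 45 members tested were called, while 1.22% of all 10505 genes tested were called, 0.4% as higher and 0.819% as lower in diseased-BWF1 mice. DESeq2 also called 0 members, against 3.05% of its genes. At an unadjusted p under 0.05, edgeR gave 4 members, 1 higher and 3 lower, and DESeq2 gave 2, while the shares over all genes were 13.2% and 6.49%. The smallest adjusted p of any member was 0.198 in edgeR, for Psma4. Psmc3ip, a recombination cofactor, was left out by the filter on low counts.

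The constitutive subunits lay slightly lower in diseased-BWF1 PMs. Of 31 subunits, 28 had a log2 fold change (diseased-BWF1 over control) below 0, against 49.1% of all genes tested. Their median log2 fold change was -0.16, with a range from -0.43 to 0.11, while the median over all genes was 0.01. The 31 genes were measured in the same 6 libraries and are not independent, so the count is a description and carries no test. The direction of single genes depended on the libraries, since 24 subunits were below 0 without control mouse 3 and 30 without control mouse 1. With library totals as the only scaling, 26 were below 0.

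The sizes were small and most intervals were narrow. The 95% interval of the fold change lay within 1.5-fold either way for 27 of the 31 constitutive subunits, compared with 31.2% of all genes tested, which include genes of low counts. The intervals of Psma4, Psmb2, Psmc1 and Psmc3, all with lower fitted values, reached past it. Their lower ends were at log2 fold changes of -0.72, -0.59, -0.70 and -0.61. In 8 of the 31 every diseased-BWF1 mouse was below every control mouse, and in 0 was every diseased-BWF1 mouse above, against 11.2% and 9.59% of all genes. The 8 were Psma4 of the alpha ring, Psmb2 and Psmb4 of the beta ring, Psmc3, Psmc4, Psmc5 and Psmc6 of the 19S base, and Psmd2. They numbered 7 when counts were scaled by library totals and 9 with TMM factors. In 3 against 3 mice the exact permutation test of 1 gene cannot give a p below 0.1.

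**Figure D1:**
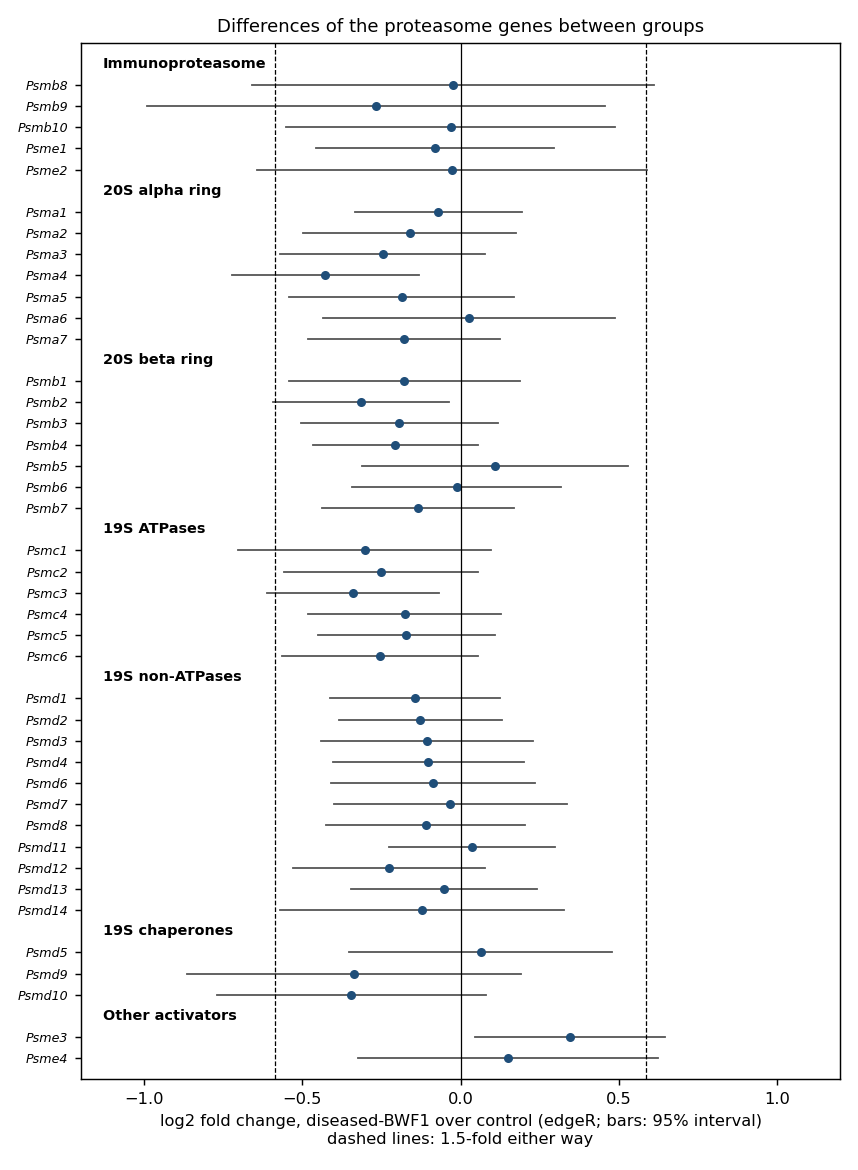
Log2 fold change (x axis, diseased-BWF1 over control, edgeR) of 41 proteasome genes grouped by role (y axis); bars are 95% intervals and dashed lines mark 1.5-fold either way. Most constitutive subunits sit just left of 0 with intervals inside the dashed lines. The intervals of Psma4, Psmb2, Psmc1 and Psmc3 reach past the left line, and those of Psmb8, Psmb9 and Psme2 also reach past the lines.

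Within the 20S core, 6 of 7 alpha ring subunits and 6 of 7 constitutive beta ring subunits had a log2 fold change below 0, with medians of -0.18 and -0.18. Psma4 (chr9:54950781-54958034 on GRCm38.p6), a subunit of the alpha ring that gates entry to the barrel, differed most by p. It had 281, 255 and 276 normalized counts in control mice and 218, 179 and 208 in diseased-BWF1 mice. All diseased-BWF1 mice were below all control mice. The fitted log2 fold change was -0.43 (SE 0.13, 95% interval -0.72 to -0.13), or 0.744-fold, with an unadjusted p of 0.0107 and an adjusted p of 0.198 in edgeR. Over the alternatives the adjusted p of Psma4 ran from 0.189 (edgeR, upper quartile scaling) to 0.584 (edgeR without the first mouse of both groups). A processed pseudogene of Psma4 shares 9.48% of its 75-base transcript windows, a window being as long as 1 read, so a small part of its reads could be placed on either gene.

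Psmb2, a structural subunit of the beta ring, had 199, 201 and 210 normalized counts in control and 174, 164 and 153 in diseased-BWF1 mice. The groups did not overlap. The fitted log2 fold change was -0.32 (SE 0.12) with an edgeR adjusted p of 0.315. Psma6 and Psmb5 were the core subunits above 0, with log2 fold changes of 0.03 and 0.11.

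The 6 ATPases of the 19S base, which form the ring that unfolds the substrate, all had log2 fold changes below 0, from -0.34 to -0.17. In 4 of the 6, which are among the 8 named above, the groups did not overlap, against 11.2% of all genes tested. Psmc3 had 276, 275 and 301 normalized counts in control and 240, 215 and 219 in diseased-BWF1 mice, so that each control mouse stood above each diseased-BWF1 mouse. The fitted log2 fold change was -0.34 (SE 0.12), with an unadjusted p of 0.0208 and an adjusted p of 0.265 in edgeR. Psmc6 had 213, 227 and 269 against 200, 188 and 207, at a log2 fold change of -0.25 (SE 0.13, edgeR adjusted p = 0.478), and here the lowest control mouse was close to the highest diseased-BWF1 mouse.

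Psmc1 was the ATPase with the widest spread, with 280, 261 and 387 normalized counts in control and 250, 239 and 264 in diseased-BWF1 mice (log2 fold change -0.30, SE 0.17). Control mouse 3 was high and the second control mouse overlapped the diseased-BWF1 mice. Psmc4 had 156, 160 and 188 against 149, 148 and 150, and Psmc5 had 169, 174 and 180 against 156, 145 and 164. In both the groups stood apart by a few counts, with log2 fold changes of -0.18 (SE 0.13) and -0.17 (SE 0.12).

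The 11 non-ATPase subunits of the 19S cap, which include the scaffold subunits Psmd1 and Psmd2, the ubiquitin receptor Psmd4 and the deubiquitinase Psmd14, had the median nearest to 0 among the groups of constitutive subunits. Their median log2 fold change was -0.10, all 11 intervals lay within 1.5-fold, and Psmd2 was the single subunit whose groups did not overlap. Psmd2 was at 544, 520 and 547 normalized counts in control and at 500, 470 and 507 in diseased-BWF1 mice, at a log2 fold change of -0.13 (SE 0.11). The chaperones that assemble the 19S base lay at -0.34 (SE 0.22) for Psmd9, -0.35 (SE 0.18) for Psmd10 and 0.06 (SE 0.18) for Psmd5, with wider errors at their lower counts.

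The reads of some members could belong to other genes. Of 45 members with transcripts in the annotation, 31 shared no 75-base window with another gene. Among the constitutive subunits the share was highest for Psma5, with 39.8%, then Psmb5, with 36.8%, and Psmb3, with 33.1%. Psma3 also rested mostly on a predicted record, since 15.2% of its counts lay on curated ones. With curated records alone, 29 of the 31 constitutive subunits had a log2 fold change below 0, and their median was -0.17.

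Summed over the 31 genes, constitutive subunits took 0.186%, 0.174% and 0.195% of counts on genes in control mice and 0.177%, 0.162% and 0.173% in diseased-BWF1 mice. The first diseased-BWF1 mouse was above the second control mouse, so the summed shares overlapped. Levels were also compared per length, taken from the GENCODE transcript of the gene's most counted record that had a match. On this scale the mean levels of constitutive subunits spanned 5.99-fold in control and 5.92-fold in diseased-BWF1 mice. Psma7 was at the top with 463 normalized counts per kilobase in control mice, and Psma2, Psmd13 and Psmd11 were at the bottom with 77.4, 78.5 and 78.5.

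**Figure D2:**
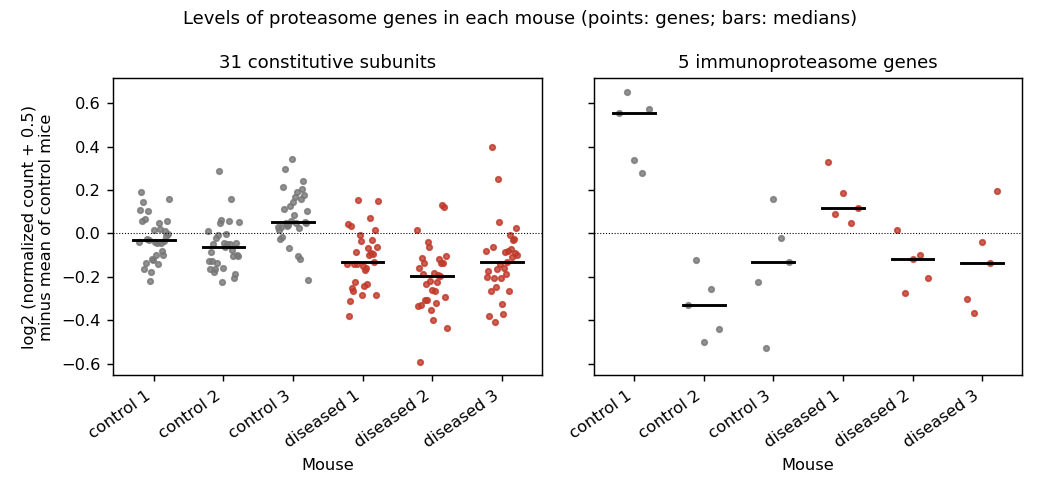
Level of each gene in each mouse, as log2 (normalized count + 0.5) minus the mean of the control mice (y axis), for 31 constitutive subunits (left) and 5 immunoproteasome genes (right); each point is 1 gene and bars are medians. Constitutive medians are -0.03, -0.06 and 0.05 in control and -0.13, -0.19 and -0.13 in diseased-BWF1 mice, while immunoproteasome genes are spread by mouse, with control mouse 1 at 0.55.

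Immunoproteasome genes did not differ between the groups beyond the spread of the mice, and they spread far more than the constitutive subunits. The 5 log2 fold changes lay between -0.27 and -0.02 with a median of -0.03, and edgeR's adjusted p values ran from 0.767 to 0.984. The interval lay within 1.5-fold for 2 of the 5 genes, Psmb10 and Psme1, so for the other 3 a difference of that size in one or both directions is inside the interval. The within-group SD on the log2 scale had a median of 0.483 over the 5 genes in control mice, against 0.137 over the constitutive subunits and 0.250 over all genes tested. In diseased-BWF1 mice the medians were 0.213, 0.0901 and 0.216.

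Psmb8, also called LMP7, which takes the place of Psmb5, had 450, 244 and 262 normalized counts in control and 384, 310 and 248 in diseased-BWF1 mice. The fitted log2 fold change was -0.02 (SE 0.27, 95% interval -0.66 to 0.61). The first mouse stood highest in each group and the groups overlapped. Psmb9, or LMP2, which replaces Psmb6, had 162, 94.6 and 71.2 against 110, 85.1 and 79.7, at a log2 fold change of -0.27 (SE 0.31, 95% interval -0.99 to 0.46). Psmb10, or MECL-1, which replaces Psmb7, had 284, 158 and 250 against 255, 207 and 218, at a log2 fold change of -0.03 (SE 0.22). In Psmb10 the second control mouse was the low one, and the diseased-BWF1 mice fell between the control mice.

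For both PA28 genes the groups overlapped. Psme1, the alpha subunit, had 471, 325 and 384 normalized counts in control and 402, 363 and 353 in diseased-BWF1 mice (log2 fold change -0.08, SE 0.16). Psme2, the beta subunit, had 298, 147 and 183 against 217, 173 and 229 (log2 fold change -0.03, SE 0.26). Both were highest in control mouse 1. Psme2 and its copy Psme2b share sequence: 46.9% of the 75-base windows of Psme2 and 60.2% of those of Psme2b occur in the other gene, so their counts cannot be separated with certainty. Psme2b had 94.3, 45.3 and 31.0 against 59.5, 59.8 and 54.5 normalized counts (log2 fold change 0.01, SE 0.38), which is again highest in control mouse 1.

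**Figure D3:**
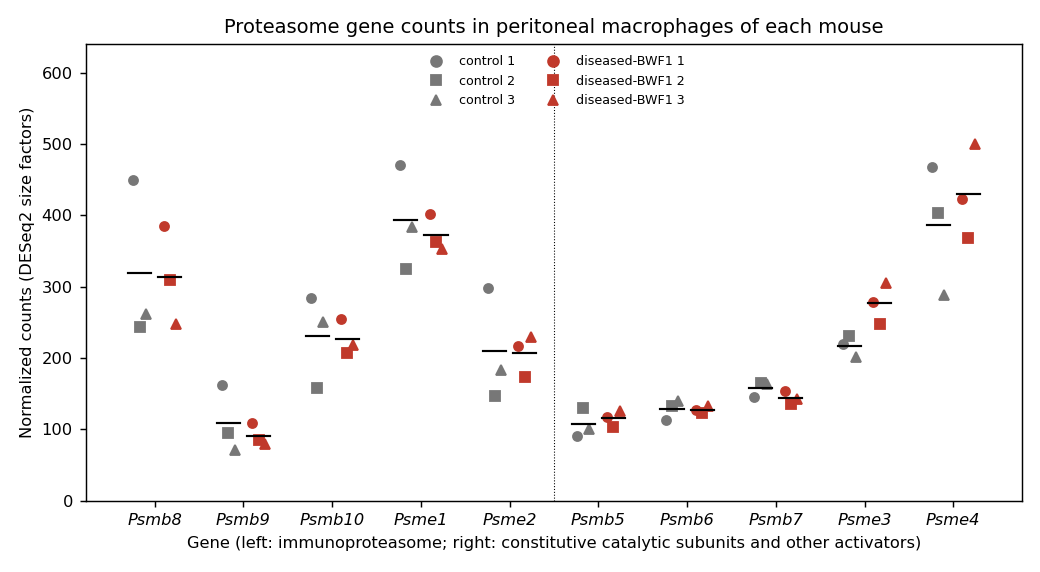
Normalized counts (y axis) of 10 proteasome genes in each of the 6 mice, control in gray and diseased-BWF1 in red, with the shape giving the mouse number and lines the group means. Control mouse 1 is the highest point for each of the 5 immunoproteasome genes on the left, and for Psme3 the diseased-BWF1 mice, at 247 to 305, all sit above the control mice. Such a separation held for 9.59% of all genes tested.

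After the values had been seen, the genes were counted for which it was the highest of the 6 libraries: these were 5 of 5 immunoproteasome genes and 7 of 31 constitutive subunits, against 12.8% of all genes tested. It reached at least 1.5 times the mean of the other control mice in 3 of the 5 (Psmb8, Psmb9 and Psme2) and in 0 of the 31, against 7.07% of all genes. In 4 of the 5, all but Psme2, the first mouse was the highest in both groups, against 10.1% of all genes. Immunoproteasome genes together took 0.0437%, 0.0247% and 0.0296% of counts on genes in control and 0.0372%, 0.0298% and 0.0298% in diseased-BWF1 mice. Without control mouse 1 all 5 log2 fold changes were above 0, with a median of 0.14, and without the first mouse of both groups the median was 0.05; edgeR called 0 members in either case.

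Several other genes of class I antigen presentation were also highest in this mouse. In the list of 8 such genes, 6 were highest in control mouse 1 and edgeR called 0 between the groups. Tap1, which encodes a subunit of the peptide transporter, had 256, 140 and 104 normalized counts in control and 165, 195 and 153 in diseased-BWF1 mice. Nlrc5, the transactivator of class I genes, had 353, 180 and 129 against 233, 211 and 142. B2m, the light chain of class I molecules, had 9072, 5750 and 6629 against 6332, 5957 and 4562. In all 3 genes control mouse 1 was above every other library. The exceptions in the list were Tap2, with 304, 229 and 227 against 224, 313 and 217, and Irf8, with 266, 320 and 319 against 308, 150 and 206, where control mouse 1 was the lowest control. No test of this joint variation was made.

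The first mouse of each group also stood far above the rest in MHC class II genes, a list added after these values were seen. Cd74, the invariant chain, had 1936, 218 and 198 normalized counts in control and 1621, 262 and 197 in diseased-BWF1 mice, and H2-Aa had 563, 77.2 and 55.1 against 519, 117 and 70.6. B cells also express these genes. The summed B cell list ran from 11.3 to 20.7 normalized counts in control and from 2.02 to 11.3 in diseased-BWF1 mice. It was highest in the first mouse of each group, but the control mice did not rank in it as they did for Cd74. Cd79a of this list had 10.8, 3.09 and 11.5 normalized counts in control and 6.61, 6.08 and 1.01 in diseased-BWF1 mice. Control mouse 3 thus stood beside control mouse 1 for this gene. The mast cell, eosinophil and mesothelium lists reached at most 2.30, 7.55 and 2.48. The list of 3 dendritic cell markers summed to 33.9 to 41.3 in control and 30.3 to 51.0 in diseased-BWF1 mice. In it control mouse 1 was the lowest control, and diseased-BWF1 mouse 1 was the highest of its group. The part of other cell types, including class II-high macrophages or dendritic cells, in the immunoproteasome values of these mice was not tested.

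The exchange of catalytic subunits was compared within each mouse as the log2 ratio of an immunoproteasome gene to the constitutive gene it replaces, from counts with 0.5 added. The 3 ratios did not differ between the groups beyond the spread of the mice. For Psmb8 over Psmb5 the ratios were 2.30, 0.91 and 1.37 in control and 1.70, 1.58 and 0.97 in diseased-BWF1 mice, a difference of -0.11 (exact permutation p = 1.0, two-sided). For Psmb9 over Psmb6 they were 0.52, -0.49 and -0.97 against -0.22, -0.52 and -0.74, a difference of -0.18 (exact permutation p = 0.8). For Psmb10 over Psmb7 they were 0.96, -0.05 and 0.61 against 0.73, 0.60 and 0.60, a difference of 0.14 (exact permutation p = 0.9). The Benjamini-Hochberg adjusted values of the 3 exact tests were all 1.0. Without control mouse 1 the first and second differences turned to 0.28 and 0.24. The first turned to 0.11 without diseased-BWF1 mouse 3, and the third to -0.14 without control mouse 2. With curated records alone the third difference was 0.29 (exact permutation p = 0.4), and the log2 fold change of Psmb7 was -0.27.

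**Figure D4:**
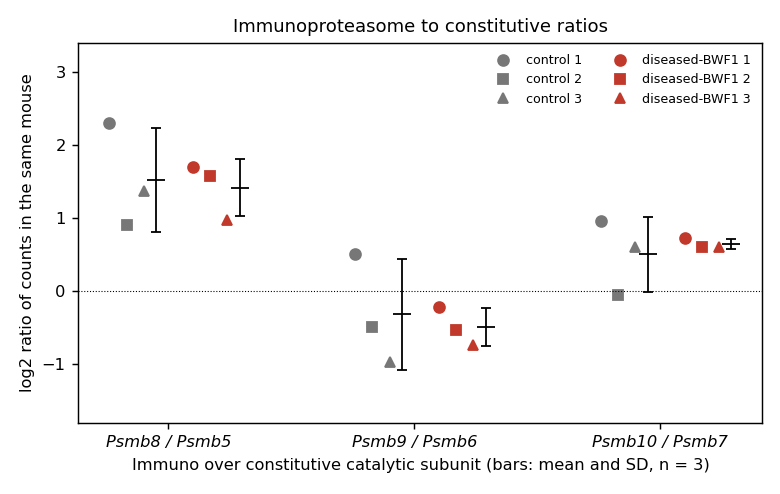
Log2 ratio of counts of each immunoproteasome catalytic gene to its constitutive counterpart (y axis) in each mouse, control in gray and diseased-BWF1 in red, with mean and SD (n = 3) beside the points. The control mice spread more widely than the diseased-BWF1 mice, with SDs of 0.71, 0.76 and 0.52 against 0.39, 0.26 and 0.07.

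The constitutive counterparts differed in spread: the SD of control mice on the log2 scale was 0.261 for Psmb5, 0.158 for Psmb6 and 0.101 for Psmb7, against a median of 0.137 over the constitutive subunits. Psmb5 had 91.0, 130 and 101 normalized counts in control and 118, 103 and 126 in diseased-BWF1 mice (log2 fold change 0.11, SE 0.18). Psmb6 had 113, 133 and 140 against 127, 123 and 133 (log2 fold change -0.01, SE 0.14), and Psmb7 had 146, 165 and 164 against 154, 136 and 143 (log2 fold change -0.13, SE 0.13). In all 3 the groups overlapped, and control mouse 1 was the lowest control. Other genes share 36.8% of the windows of Psmb5 and 0.0% of those of Psmb6 and Psmb7. For Psmb5 most of the shared windows occur in a processed pseudogene. Per kilobase of transcript, in control mice Psmb8 was at 196 normalized counts against 119 for Psmb5, Psmb9 at 80.9 against 161 for Psmb6, and Psmb10 at 176 against 136 for Psmb7.

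Promoter sequence is shown for the 3 immunoproteasome genes whose window held a motif that was searched, since these genes stood high in the same mice, and for the constitutive genes Psmb5 and Psmb6 whose products Psmb8 and Psmb9 replace. Each window runs from 250 bases before to 50 bases after a transcription start in the RefSeq promoter table on GRCm38.p6, 5′ to 3′ on the strand of the gene. Psmb8 lies at chr17:34197945-34198244 (+), Psmb9 at chr17:34187281-34187580 (-), Psme1 at chr14:55578244-55578543 (+), Psmb5 at chr14:54617946-54618245 (-) and Psmb6 at chr11:70525107-70525406 (+). Capitals mark 1 motif in each window: the gamma-activated site (GAS) in Psmb8, the CCAAT box, here on the reverse strand, in Psmb9, the interferon-stimulated response element (ISRE), also on the reverse strand, in Psme1, and the antioxidant response element (ARE) in Psmb5 and Psmb6. They begin at -97, -8, 9, -47 and -9 bases from the start used for the window, in that order. For Psmb6 that start lies downstream of the first base of the gene in the RefSeq gene table, 70525324, and the motif of Psmb6 lies downstream of that base too.
Psmb8: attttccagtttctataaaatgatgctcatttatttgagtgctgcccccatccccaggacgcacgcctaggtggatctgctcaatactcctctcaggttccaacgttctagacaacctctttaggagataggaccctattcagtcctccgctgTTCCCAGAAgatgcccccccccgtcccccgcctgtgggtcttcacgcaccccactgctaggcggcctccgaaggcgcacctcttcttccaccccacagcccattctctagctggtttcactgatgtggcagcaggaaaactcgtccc
Psmb9: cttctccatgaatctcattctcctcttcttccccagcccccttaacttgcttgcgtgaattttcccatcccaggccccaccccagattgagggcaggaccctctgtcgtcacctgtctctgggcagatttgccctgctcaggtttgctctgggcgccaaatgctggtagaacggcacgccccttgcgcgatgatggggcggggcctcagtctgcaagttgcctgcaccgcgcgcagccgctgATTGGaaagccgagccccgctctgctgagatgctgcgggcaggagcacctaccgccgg
Psme1: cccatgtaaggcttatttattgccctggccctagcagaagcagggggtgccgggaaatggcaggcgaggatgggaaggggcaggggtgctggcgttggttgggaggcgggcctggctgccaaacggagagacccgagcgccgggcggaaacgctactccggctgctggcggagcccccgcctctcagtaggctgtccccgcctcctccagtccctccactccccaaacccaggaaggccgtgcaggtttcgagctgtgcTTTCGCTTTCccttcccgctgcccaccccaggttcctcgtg
Psmb5: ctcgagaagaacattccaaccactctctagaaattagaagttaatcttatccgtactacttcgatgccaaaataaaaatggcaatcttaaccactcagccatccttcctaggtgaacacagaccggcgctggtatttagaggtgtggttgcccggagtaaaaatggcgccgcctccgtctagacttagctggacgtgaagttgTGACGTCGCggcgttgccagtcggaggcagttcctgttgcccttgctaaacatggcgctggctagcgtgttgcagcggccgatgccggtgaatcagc
Psmb6: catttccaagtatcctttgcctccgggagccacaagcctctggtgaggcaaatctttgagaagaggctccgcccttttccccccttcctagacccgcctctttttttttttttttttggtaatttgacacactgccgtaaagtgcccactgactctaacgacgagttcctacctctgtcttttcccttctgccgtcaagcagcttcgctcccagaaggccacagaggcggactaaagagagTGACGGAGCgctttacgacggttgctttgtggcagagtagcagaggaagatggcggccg

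Of the 46 members, 39 had at least 1 window among 32851 promoter windows of the table, and these 39 genes had 43 windows. Both strands were searched. The GAS letters TTCNNNGAA occurred in the windows of Psmb8 and Psmd2, or 4.65% of member windows, against 8.3% of all windows. The ISRE, searched as GAAA, any 2 bases and GAAA again, occurred in those of Psme1, Psmb3, Psmd4 and Psmd9, or 9.3% against 3.44%. The ARE letters TGACNNNGC, a motif of the Nfe2l1 and Nfe2l2 family that drives proteasome genes, occurred in those of Psmb5, Psmb6, Psmc6, Psmd12, Psmd9 and Psme4, or 14.0% against 12.4%. The letters CCAAT occurred in 16 genes, or 37.2% against 37.4%. A match describes letters in the window and says nothing of binding. The window of Psmb9 overlaps that of Tap1, on the opposite strand, by 275 bases, and both genes were highest in control mouse 1.

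Psme3 (chr11:101316213-101323537 on GRCm38.p6), which encodes PA28 gamma, a nuclear activator that opens the core without ubiquitin, was the single tested member whose diseased-BWF1 mice were all above the control mice. By this measure 9.59% of all genes tested were higher in diseased-BWF1 mice. Psme3 is named for its values and not for this separation. It had 220, 230 and 201 normalized counts in control and 279, 247 and 305 in diseased-BWF1 mice. The fitted log2 fold change was 0.35 (SE 0.13, 95% interval 0.05 to 0.65), or 1.27-fold. The unadjusted p was 0.0293 and the adjusted p 0.306 in edgeR, so the gene did not pass the test. Over the alternatives the adjusted p ran from 0.260 to 0.715, both ends with edgeR. Psme4, or PA200, another activator without need for ubiquitin, had 467, 403 and 288 against 423, 368 and 500 (log2 fold change 0.15, SE 0.20), and its groups overlapped.

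The subunits of other tissues had low counts, at most 15 in any library. Psma8, the alpha subunit of the testis, had 12.4, 11.3 and 10.3 normalized counts in control and 0, 4.05 and 9.08 in diseased-BWF1 mice (log2 fold change -1.38, SE 0.80, edgeR adjusted p = 0.522). The groups did not overlap after scaling, as for 11.2% of all genes tested in this direction. Before scaling, control mouse 3 and diseased-BWF1 mouse 3 both had 9 counts. The 0 of diseased-BWF1 mouse 1 allows up to 3 counts, or 0.769 CPM, in that library. The fitted value rested on single mice, at -0.79 without diseased-BWF1 mouse 1 and -2.46 without diseased-BWF1 mouse 3. Psmb11, the beta subunit of thymic epithelium, had 3.31, 12.3 and 3.45 against 14.2, 10.1 and 6.05 (log2 fold change 0.67, SE 0.63). Its log2 fold change was 0.33 without control mouse 1, 0.41 without control mouse 3, 0.34 without diseased-BWF1 mouse 1 and 1.56 without control mouse 2. Psmc3ip had between 2.02 and 6.08 normalized counts in all mice. Psme3ip1, a partner of PA28 gamma, had a log2 fold change of -0.31 (SE 0.19, edgeR adjusted p = 0.531).

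Genes that serve the proteasome were taken from lists by role, and edgeR called 0 genes in each. Of 8 assembly factors and inhibitors, 7 had records and were tested, with 4 above and 3 below 0 and a median log2 fold change of 0.01. Pomp, the maturation factor of the 20S core, had 202, 215 and 237 normalized counts in control and 205, 150 and 189 in diseased-BWF1 mice (log2 fold change -0.27, SE 0.15), and the groups overlapped. Psmg2, a chaperone of the alpha ring, had 39.7, 45.3 and 44.8 against 47.2, 67.9 and 56.5 (log2 fold change 0.40, SE 0.20), with all diseased-BWF1 mice above the controls. Psmf1, an inhibitor of the core, was also higher in all of them (log2 fold change 0.22, SE 0.13, edgeR adjusted p = 0.530). Over all genes tested, 9.59% were higher in this way.

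Of 9 factors that dock on the 19S cap, 6 were above and 3 below 0. Ubqln2, which shuttles ubiquitinated proteins to the cap, had 165, 183 and 179 normalized counts in control and 207, 204 and 223 in diseased-BWF1 mice (log2 fold change 0.26, SE 0.12, edgeR adjusted p = 0.401), and the groups did not overlap. The 4 genes of the response that restores proteasome transcription lay between -0.11 and 0.06. Among them Nfe2l1, the transcription factor, had 623, 628 and 524 against 554, 639 and 629 (log2 fold change 0.04, SE 0.13). The 6 ubiquitin and E1 genes ranged from -0.28 for Ubb to 0.24 for Rps27a. Ubb was lower in every diseased-BWF1 mouse than in any control (edgeR adjusted p = 0.531). Without 1 mouse Ubb ranged from -0.38 to -0.12 and Rps27a from 0.0033 to 0.38. The 4 genes of the p97 segregase ranged from -0.16 to 0.09. Of 6 heat shock and stress genes 4 were above 0, and Hspa1a had 115, 103 and 269 against 765, 222 and 153, where diseased-BWF1 mouse 1 alone was high. Sqstm1, an autophagy receptor for ubiquitinated proteins, was lower in every diseased-BWF1 mouse (log2 fold change -0.26, SE 0.13, edgeR adjusted p = 0.446). Groups without overlap, as for Ubqln2, Ubb and Sqstm1, were found for 9.59% of all genes tested as higher and 11.2% as lower.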

How the data were processed

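RNA of sorted PMs was sequenced by the authors on a MiSeq (KAPA Stranded mRNA-Seq, paired-end), and raw counts per RefSeq record were deposited for each mouse. The submitters' processing notes name Salmon 0.8.0, DESeq2 and GRCm38.p6 without their role, so the whole-number counts deposited by the authors may be rounded estimates. How reads shared by genes were assigned, and whether strand was used, is not given in the sources used here.

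Of 107193 records, 45754 matched the RefSeq gene table by version and 40712 by accession with another version; counts were summed per gene, and 20727 unmatched records were left out. Genes held 89.1% to 93.0% of each library's counts. The annotation listed 52 genes under the naming rule, of which 6 pseudogenes were left out. R 4.3.3 and edgeR 4.0.16 were used with filterByExpr, TMM, estimateDisp, glmQLFit and glmQLFTest at default settings, with Benjamini-Hochberg adjustment over 10505 genes and no covariate. The common dispersion was 0.0543. Alternatives used DESeq2 1.42.0 and limma 3.58.1, other scalings and filters, a replicate block, age, each mouse left out, and curated records alone. Exact permutation tests were two-sided. The code was tested on simulated data.

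The members, lists and named genes were chosen with earlier results of these data known. Named in full were the immunoproteasome genes, Psmb5, Psmb6, Psmb7, Psme3, Psme4, the 5 smallest edgeR p values and members under 10 counts in a library. Psmb4, Psmd2 and other genes beyond that rule were named after their values were seen. A few genes of the lists are not reported here.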

Additional observations from a re-analysis of the deposited data

How the results depend on the processing

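The count of 0 called members held under DESeq2, limma-voom, the other scalings and filters, age, curated records, the replicate block and each mouse left out. By unadjusted p alone it was 1 higher and 3 lower. The medians of the constitutive subunits lay between -0.20 and -0.11 under all alternatives run, and that of immunoproteasome genes between -0.22 and 0.14. The labels do not say that replicate numbers pair the mice. Same-numbered mice correlated at 0.118, 0.00556 and 0.157 in their deviations from the group means, and other pairs at -0.144 to 0.0573, so pairs 1 and 3 were the highest of all, but not every pair was over 0.1 and the numbers were not used as a pairing. With the replicate block no call changed, and Psmb8, Psmb10 and Psme2 turned from just below 0 to 0.0071, 0.00046 and 0.0233. They also turned with limma-voom (0.0062, 0.0039 and 0.0242) and with library totals (0.0164, 0.0113 and 0.0140), where Psmb6 was 0.0339. Psme2b turned to -0.0113 without the low-count filter and to -0.00046 with at least 10 counts in every library. Leaving out both mice numbered 1, an alternative chosen after seeing the data, turned Psmb8 (0.133), Psmb10 (0.0459), Psme1 (0.0046), Psme2 (0.277), Psmb5 (-0.0196) and the log2 ratios of Psmb8 to Psmb5 (0.138) and Psmb9 to Psmb6 (0.0977). Leaving out 1 mouse at a time gave ranges of -0.42 to 0.28, -0.51 to 0.24 and -0.14 to 0.37 for the ratios of Psmb8, Psmb9 and Psmb10. The log2 fold changes then ranged from -0.20 to 0.31 for Psmb8, -0.49 to 0.13 for Psmb9, -0.24 to 0.14 for Psmb10, -0.20 to 0.0642 for Psme1, -0.22 to 0.32 for Psme2, -0.0048 to 0.27 for Psmb5, -0.10 to 0.0559 for Psmb6, -0.0186 to 0.31 for Psme4 and -0.28 to 0.59 for Psme2b, and, without a turn, from -2.46 to -0.79 for Psma8 and 0.33 to 1.56 for Psmb11. With limma-voom Psma8 was at -2.15. Without 1 mouse the log2 fold change of Psma6 ranged from -0.19 to 0.15 and that of Psmd5 from -0.0551 to 0.21. Psmd6 ranged from -0.15 to 0.0247 and Psmd7 from -0.13 to 0.0973. Psmd11 ranged from -0.0027 to 0.0688, Psmd13 from -0.0977 to 0.0034 and Psmd14 from -0.28 to 0.0236. Psmc1 ranged from -0.41 to -0.11, Psmc4 from -0.23 to -0.0871, Psmc6 from -0.33 to -0.15 and Psmd9 from -0.43 to -0.20, without a turn. The cause of these turns was not tested.

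The median SE of a member's log2 fold change was 0.14 with 3 mice a group, and for members whose interval holds 0, a difference within that interval cannot be told from none.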
